A study of Homo sapiens with 5 samples.

Results

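The monocarboxylate transporters described here are 9 human genes: SLC16A1, SLC16A3, SLC16A4, SLC16A5, SLC16A6, SLC16A7, SLC16A9 and SLC16A10 of the SLC16 family, and SLC5A8 of the sodium-coupled SLC5 family. They were taken by gene name, with earlier results of these data known, and all 9 are present among the 27992 gene names of the count table. In at least 1 library, 8 of the 9 reached 1 read per 1000000 gene reads (CPM) and were analysed among 15099 genes. SLC16A5 did not reach that level in any library. SLC5A8 reached it in YFP-high alone.

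RNA was sequenced from U2OS, a human osteosarcoma cell line, in 5 groups with 1 library each. The parental group is the line without a construct. The other 4 groups, named YFP-negative, YFP-low, YFP-medium and, at the top, YFP-high, are fractions that were gated on YFP by flow cytometry from U2OS pTRIPZ-YFP-ER-E2F1 cells. These cells carry a doxycycline-inducible construct that joins yellow fluorescent protein (YFP), the hormone-binding part of the oestrogen receptor (ER) and E2F1, a transcription factor that drives genes of DNA replication. All 5 groups, parental cells included, share DMEM with 8% fetal bovine serum, doxycycline at 500 ng/ml for 48 h, and then 90 nM OHT (4-hydroxytamoxifen, which activates ER fusions) over the last 20 h. The YFP-negative cells come from the line with the construct and were collected for lack of YFP, so they are a sorted fraction and not untreated cells. The sources used here do not say whether the line is a clone.

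Monocarboxylate transporters move small acids such as lactate, pyruvate and ketone bodies across cell membranes. The best known SLC16 carriers move the acid together with a proton, so that cells with high glycolysis can release lactate and other cells can take it up. Several relatives have other cargo, such as thyroid hormone, aromatic amino acids, carnitine or creatine, and a few have no settled substrate. SLC5A8 takes up the same kind of acids together with sodium and is known for its silencing by DNA methylation in several tumours.

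RefSeq promoter windows, which run from 250 bases before to 50 bases after an annotated start on build GRCh38.p14, were matched by symbol for 6 of the 9 genes, with 12 windows in all. SLC16A1, SLC16A5 and SLC16A6 were not matched. Each window was searched on both strands for TTTNNCGC, a loose pattern for E2F sites, where N is any base. It includes the stricter forms TTTGGCGC, TTTCCCGC, TTTGCCGC and TTTCGCGC. A match is a description of the letters, not a binding site. The windows of SLC16A4 and SLC16A9 are shown because they hold the 2 matches, and those of SLC5A8 and SLC16A10 because these genes had large ratios along the YFP gradient. Each is printed 5′ to 3′ on the strand of its gene, and capitals mark a match.
SLC16A4 (chr1:110390977-110391276, minus strand): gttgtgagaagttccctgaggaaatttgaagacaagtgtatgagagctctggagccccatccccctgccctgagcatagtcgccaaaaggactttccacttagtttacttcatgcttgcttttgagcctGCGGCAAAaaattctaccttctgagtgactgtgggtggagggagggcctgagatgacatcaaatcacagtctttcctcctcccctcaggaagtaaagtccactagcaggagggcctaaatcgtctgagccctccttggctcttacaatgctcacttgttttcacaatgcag
SLC16A9 (chr10:59709801-59710100, minus strand): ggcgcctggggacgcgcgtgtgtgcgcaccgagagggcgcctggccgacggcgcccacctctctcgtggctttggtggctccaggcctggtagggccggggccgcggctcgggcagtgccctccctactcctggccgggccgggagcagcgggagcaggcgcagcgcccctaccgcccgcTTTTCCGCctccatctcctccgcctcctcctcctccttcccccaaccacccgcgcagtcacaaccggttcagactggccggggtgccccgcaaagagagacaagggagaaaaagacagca
SLC16A10 (chr6:111087253-111087552, plus strand): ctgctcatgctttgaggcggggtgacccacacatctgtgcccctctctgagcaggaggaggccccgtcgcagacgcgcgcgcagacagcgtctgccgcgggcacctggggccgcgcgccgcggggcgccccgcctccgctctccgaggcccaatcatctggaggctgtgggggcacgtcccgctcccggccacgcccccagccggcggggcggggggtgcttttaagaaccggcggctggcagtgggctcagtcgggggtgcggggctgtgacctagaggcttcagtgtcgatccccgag
SLC5A8 (chr12:101210189-101210488, minus strand): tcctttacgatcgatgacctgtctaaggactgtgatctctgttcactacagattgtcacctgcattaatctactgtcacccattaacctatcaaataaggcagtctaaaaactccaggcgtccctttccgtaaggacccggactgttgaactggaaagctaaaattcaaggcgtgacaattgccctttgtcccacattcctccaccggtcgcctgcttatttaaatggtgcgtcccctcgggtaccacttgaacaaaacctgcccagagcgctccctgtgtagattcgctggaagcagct
The SLC16A4 match begins at -121 relative to the start and reads TTTGCCGC on the opposite strand. The SLC16A9 match begins at -70 and reads TTTTCCGC on the strand of the gene, which is none of the stricter forms. SLC16A9 has another window, further upstream, with no match. No match was found in the windows of SLC16A3, SLC16A7, SLC16A10 or SLC5A8. Of 35116 windows of the same length in the table, 6.89% held TTTNNCGC and 0.607% held TTTGCCGC. The SLC16A10 window had 73.0% GC and 32 CG pairs, the matched SLC16A9 window 71.7% and 29, the SLC5A8 window 48.7% and 12, and the SLC16A4 window 49.3% and 3. The median GC over all windows was 58.7%.

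Each library held 70.7 to 76.5 M reads in genes. E2F1 had 86.0 CPM in the parental cells, 107 CPM in YFP-negative cells, 162 CPM in YFP-low cells, 358 CPM in YFP-medium cells and 1005 CPM in YFP-high, so its reads followed the gates. Reads of the construct and of the cell's own E2F1 are not separated. Of 8 mesenchymal and osteoblast markers, 6 were at 1 CPM or more in every library, while COL1A2 and BGLAP were not. KRT19, an epithelial keratin, had 0 reads in every library, whereas KRT18, EPCAM and CDH1 were detected. The summed level was 3123 to 6187 CPM for the 8 mesenchymal markers and 256 to 350 CPM for the 4 epithelial ones, each lowest in YFP-high. The mesenchymal sum was 6187 CPM in parental cells and already 3636 CPM in YFP-negative. The summed level of 4 leukocyte markers, of which 1 or 2 reached 1 CPM, was 17.2 CPM in YFP-high and 5.55 to 9.99 CPM in the other 4 libraries. The summed level of 4 endothelial markers, of which 0 or 1 reached 1 CPM, was 0.809 to 3.08 CPM. PECAM1, their defining marker, had 0 reads in YFP-medium and YFP-high, whereas KDR had 120 reads in YFP-high against 3 in YFP-negative and was called higher. The summed level of 4 neuronal markers, all above 1 CPM, was 148 CPM in YFP-high and 73.4 to 91.2 CPM in the other 4 libraries. In YFP-high against YFP-negative, 1 of 3 analysed epithelial markers (log2 ratio 1.68) and 1 of 2 analysed leukocyte markers (1.77) were called higher. None of the 6 analysed mesenchymal or 4 neuronal markers was called, beside 20.3% of all analysed genes higher and 11.3% lower. The part of these differences in the results below was not tested.

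Most of the 9 carriers were higher in cells with more YFP-E2F1, and none of the 8 analysed was called lower in any comparison. SLC16A5, below the filter, could not be called. A gene is called when its CPM ratio, with 0.5 CPM added to both levels, is at least 2-fold and its 95% counting interval excludes no change. Since each group is a single library, no test was made, no p-value is given, and the spread between replicate cultures is unknown. In YFP-high against YFP-negative, 7 of the 9 genes were called higher, namely all but SLC16A4 and SLC16A5, beside 20.3% of the 15099 analysed genes called higher and 11.3% called lower. The count includes SLC5A8, which entered the analysis only through its level in YFP-high. Of the 9, 5 were called higher in YFP-medium against YFP-negative, beside 9.46% of all analysed genes higher and 2.38% lower. In YFP-low against YFP-negative, SLC16A1 and SLC16A6 were called higher, so 2 of 9, beside 1.99% of all analysed genes higher and 0.0662% lower. These 3 comparisons share the YFP-negative library. For the 8 analysed carriers the median log2 ratio was 0.45 in YFP-low cells, 1.05 in YFP-medium cells and 2.05 in YFP-high, and over all analysed genes it was -0.02, -0.04 and -0.05. In bulk RNA, a change in the share of cells that express a gene and a change of RNA per cell cannot be told apart.

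**Figure D1:**
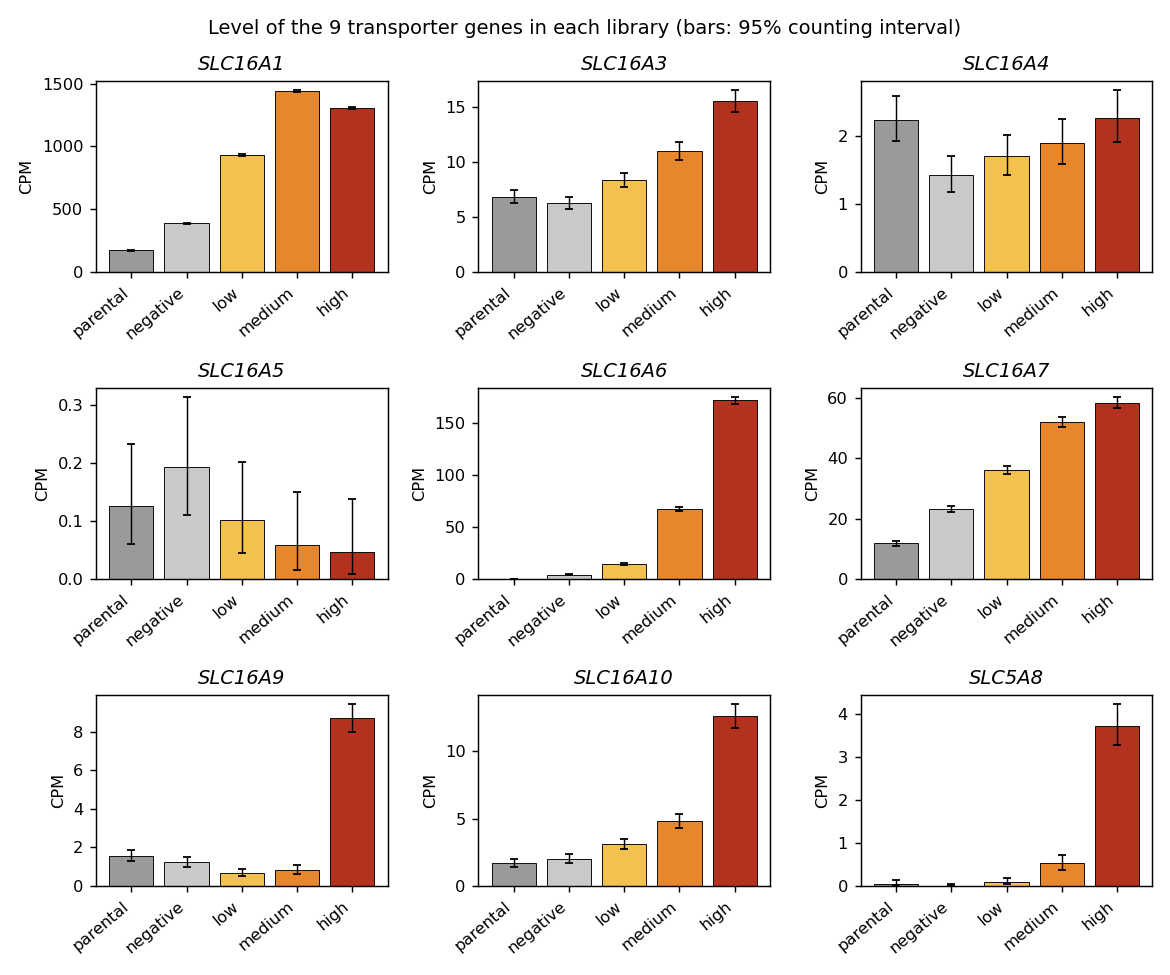
Level of each of the 9 transporter genes in CPM (vertical axes, each starting at 0 with its own scale) in the 5 libraries, ordered from parental to YFP-high. Bars are single libraries and whiskers are exact 95% Poisson intervals, which cover counting error only. SLC16A1 was highest in YFP-medium at 1439 CPM, SLC16A5 stayed at or below 0.193 CPM, and the other 7 genes were highest in YFP-high.

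Step by step, the increments differed between genes. In YFP-medium against YFP-low, SLC16A6 was the single member called higher, so 1 of 9, beside 2.67% of all analysed genes higher and 0.185% lower. In YFP-high against YFP-medium, 4 of 9 were called higher, namely SLC16A6, SLC16A9, SLC16A10 and SLC5A8, beside 9.5% higher and 1.15% lower over all analysed genes. Of the 9 genes, 6 were higher at each of the 3 steps from YFP-negative to YFP-high and 7 were highest in YFP-high. The 4, the 6 and the 7 each include SLC5A8, which entered the analysis only through its level in YFP-high. For that gene the filter itself required its highest level to be there. Over all analysed genes, 23.9% were higher at each step and 35.4% were highest in YFP-high. These orders use CPM alone and leave out counting error. Among the 6, SLC16A4 had overlapping counting intervals at each of the 3 steps. The YFP-negative fraction already differed from parental cells in SLC16A1 and SLC16A6, 2 of 9 called higher beside 2.21% higher and 2.85% lower over all analysed genes. In YFP-high against parental cells the same 7 genes as against YFP-negative were called higher, SLC5A8 again included, beside 21.4% higher and 14.6% lower over all analysed genes.

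SLC16A1 encodes MCT1, the widespread proton-coupled carrier of lactate, pyruvate and ketone bodies. It had 177 CPM in the parental cells, 392 CPM in YFP-negative cells, 934 CPM in YFP-low cells, 1439 CPM in YFP-medium cells and 1306 CPM in YFP-high. The gain came early on the gradient and stopped before its end. SLC16A1 was 2.38-fold higher in YFP-low than in YFP-negative (counting interval 2.35 to 2.41), 3.67-fold in YFP-medium (3.62 to 3.72) and 3.33-fold in YFP-high (3.29 to 3.37). Between YFP-high and YFP-medium the ratio was 0.908 (0.899 to 0.916), which is outside counting error but far below the 2-fold rule. YFP-low held 71.5% of the level in YFP-high. YFP-negative cells had 2.22-fold the parental level (2.18 to 2.27). The pseudogene AKR7A2P1, which lies inside SLC16A1 on the opposite strand, had 15, 119, 225, 299 and 157 reads from parental to YFP-high, against 13936, 32477, 72728, 98346 and 82660 reads for SLC16A1.

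SLC16A7 encodes MCT2, a carrier with high affinity for pyruvate and lactate. It had 11.9 CPM in the parental cells, 23.2 CPM in YFP-negative cells, 36.0 CPM in YFP-low cells, 52.0 CPM in YFP-medium cells and 58.5 CPM in YFP-high. Every step was upward, and the last step was the smallest. The ratio to YFP-negative was 1.56 in YFP-low (1.47 to 1.65), 2.25 in YFP-medium (2.13 to 2.38) and 2.52 in YFP-high (2.39 to 2.67). With total gene counts the log2 ratio in YFP-medium was 0.96, under the rule. YFP-high held 1.12 times the level of YFP-medium (1.07 to 1.18). Against parental cells, YFP-negative was at 1.95-fold (1.8 to 2.11), just under the 2-fold rule, and YFP-high at 4.91-fold (4.57 to 5.29).

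SLC16A3 encodes MCT4, the lactate exporter of strongly glycolytic cells. It had 6.83 CPM in the parental cells, 6.24 CPM in YFP-negative cells, 8.37 CPM in YFP-low cells, 11.0 CPM in YFP-medium cells and 15.5 CPM in YFP-high. YFP-negative and parental cells did not differ beyond counting error, with a ratio of 0.914 (0.809 to 1.03). In YFP-high it was 2.48-fold higher than in YFP-negative (2.23 to 2.77), and in YFP-medium 1.76-fold (1.57 to 1.97), which was not called. Scaled to total gene counts, the log2 ratio in YFP-high was 0.99 against YFP-negative and 0.89 against parental cells, so neither call held. SLC16A3 overlaps exons of CSNK1D on the opposite strand, and the sources used here do not give the strand setting of the counting. CSNK1D had 16972, 14839, 12887, 9676 and 7264 reads from parental to YFP-high, against 539, 517, 652, 749 and 981 reads for SLC16A3, so CSNK1D, a casein kinase gene, had its fewest reads where SLC16A3 had its most. How many reads of this pair were exchanged or left uncounted was not tested.

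SLC16A6 encodes MCT7, whose zebrafish counterpart releases the ketone body β-hydroxybutyrate from the liver. It was near absent in parental cells, with 11 reads, and had 340 reads in YFP-negative cells, 1146 in YFP-low cells, 4634 in YFP-medium cells and 10866 in YFP-high. In CPM this is 0.139, 4.10, 14.7, 67.8 and 172 in the same order. No 2 of the 5 libraries had overlapping counting intervals, and the gene was called higher in all 7 comparisons. The ratio to YFP-negative was 3.58 in YFP-low (3.17 to 4.06), 16.5 in YFP-medium (14.8 to 18.5) and 41.8 in YFP-high (37.5 to 46.7). The ratio of E2F1 itself to YFP-negative was 9.42 in YFP-high. YFP-negative cells already held 29.5-fold the parental level (16.3 to 59.6). ARSG, a sulfatase gene whose exons overlap those of SLC16A6 on the opposite strand, had 86, 49, 58, 26 and 15 reads from parental to YFP-high. How many reads of SLC16A6 and ARSG were exchanged or left uncounted was not tested.

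SLC5A8 encodes SMCT1, the sodium-coupled importer of lactate, pyruvate, butyrate and ketone bodies. It had 4 reads in parental cells, 0 in YFP-negative cells, 7 in YFP-low cells, 36 in YFP-medium cells and 236 in YFP-high. It was thus close to undetected in 3 libraries and reached 3.73 CPM (3.27 to 4.23) in YFP-high. For the count of 0 in YFP-negative, the exact Poisson interval reaches 3.69 reads, or 0.0445 CPM. A floor of 3 reads, or 0.0362 CPM, was used there in place of 0. Set against that floor, SLC5A8 was 14.5-fold higher in YFP-medium and 103-fold higher in YFP-high. These ratios leave out the counting error of the higher level and are not lower limits. The YFP-high level was 7.08-fold that of YFP-medium (4.97 to 10.4) and 73.6-fold that of parental cells (28.4 to 272). The log2 ratio with 0.5 CPM added was 1.04 in YFP-medium against YFP-negative, just past the rule. It missed the rule at 0.996 when scaled to total gene counts, 0.86 in deposited TPM and 0.34 when 2 CPM were added instead.

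SLC16A10 encodes MCT10, also called TAT1, a carrier of aromatic amino acids and thyroid hormone. It had 1.70 CPM in the parental cells, 2.03 CPM in YFP-negative cells, 3.09 CPM in YFP-low cells, 4.80 CPM in YFP-medium cells and 12.6 CPM in YFP-high. Each step was upward and the last was the largest in CPM and in ratio. Compared with YFP-negative it was 1.53-fold in YFP-low (1.25 to 1.87), 2.37-fold in YFP-medium (1.96 to 2.87) and 6.22-fold in YFP-high (5.26 to 7.39). The YFP-negative and parental levels had overlapping intervals. The call in YFP-medium was lost with total gene counts (log2 ratio 0.90), in deposited TPM (0.97) and with 2 CPM added (0.75), while the call in YFP-high held.

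SLC16A9 encodes a carrier linked to the release of carnitine. It had 123 reads in parental cells, 102 in YFP-negative cells, 52 in YFP-low cells, 56 in YFP-medium cells and 550 in YFP-high. It was the one analysed member that was lower in YFP-low and YFP-medium than in YFP-negative, at 0.542 (0.380 to 0.764) and 0.665 (0.471 to 0.930) times its level, neither of them called. In YFP-high it was at 8.69 CPM, which is 10.6-fold the YFP-medium level (8.05 to 14.2) and 7.05-fold the YFP-negative level (5.70 to 8.80). Of its 3 steps along the gradient, only the last was called.

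SLC16A4, a family member without a settled substrate, was the analysed member that was called in none of the 7 comparisons. It had 2.24 CPM in the parental cells, 1.42 CPM in YFP-negative cells, 1.71 CPM in YFP-low cells, 1.90 CPM in YFP-medium cells and 2.27 CPM in YFP-high. The ratio of YFP-high to YFP-negative was 1.60 (1.24 to 2.05), and that of YFP-high to parental cells 1.01 (0.808 to 1.27). YFP-negative cells were at 0.635 times the parental level (0.499 to 0.807), the lowest of the 5 libraries. SLC16A5, which encodes MCT6, a carrier of drugs such as bumetanide, had 10 reads in parental cells, 16 in YFP-negative cells, 8 in YFP-low cells, 4 in YFP-medium cells and 3 in YFP-high. In CPM it was lower at each step from YFP-negative to YFP-high, but so few reads do not give the size of the change. The counting intervals were 0.110 to 0.314 CPM in YFP-negative and 0.00977 to 0.138 CPM in YFP-high, which overlap. ARMC7, the gene next to SLC16A5, had 1115 to 1532 reads. The antisense genes SLC16A1-AS1, LAMTOR5-AS1 and AL360227.1 overlap exons of SLC16A1, SLC16A4 and SLC16A10 in that order. They and the microRNA gene MIR6787 within SLC16A3 are not among the counted gene names under these symbols. Whether reads from them were counted with the members was not tested.

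**Figure D2:**
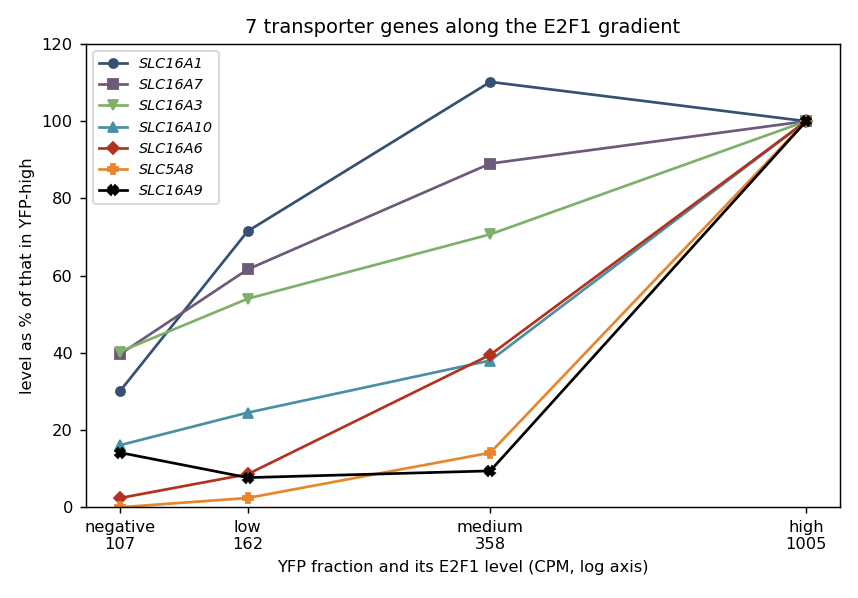
Level of 7 transporter genes in the 4 sorted fractions, from YFP-negative to YFP-high, as a percentage of the level in YFP-high (vertical axis), against the E2F1 level of the library in CPM (horizontal log axis). SLC16A1 and SLC16A7 had reached 71.5% and 61.6% of the YFP-high level in YFP-low, whereas SLC16A6, SLC16A9 and SLC5A8 stood at 8.57%, 7.68% and 2.41%.

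The genes thus differed in where along the gradient their level was reached, as the plot of levels against E2F1 shows. In YFP-medium, SLC16A1 stood at 110% of its YFP-high level, SLC16A7 at 89.0%, SLC16A4 at 83.6%, SLC16A3 at 70.7%, SLC16A6 at 39.5%, SLC16A10 at 38.0%, SLC5A8 at 14.1% and SLC16A9 at 9.43%.

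Deposited TPM (transcripts per 1000000) correct for gene length and allow the genes to be ranked within a library. SLC16A1 ranked first in all 5, at 78.4 TPM in the parental cells, 174 TPM in YFP-negative cells, 411 TPM in YFP-low cells, 602 TPM in YFP-medium cells and 531 TPM in YFP-high. SLC16A6 stood eighth of the 9 in parental cells at 0.0939 TPM, within counting error of SLC16A5 and SLC5A8, and second in YFP-medium and YFP-high at 43.0 and 106 TPM. SLC16A7 was second in parental, YFP-negative and YFP-low cells and ranked just below SLC16A6 in the other libraries. In YFP-high the order was SLC16A1, SLC16A6, SLC16A7 at 34.2 TPM, SLC16A10 at 10.7 TPM, SLC16A3 at 8.85 TPM, SLC16A9 at 5.30 TPM, SLC5A8 at 2.82 TPM, SLC16A4 at 2.20 TPM and SLC16A5 at 0.0463 TPM. In that order SLC5A8 and SLC16A4 could not be separated by their counting intervals, and the other neighbours could. In YFP-negative, SLC16A10 at 1.89 TPM and SLC16A4 at 1.51 TPM could not be separated, nor could SLC16A5 and SLC5A8 in YFP-low, or SLC16A9 at 0.515 TPM and SLC5A8 at 0.410 TPM in YFP-medium.

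The summed TPM of the 9 genes was 95.6 in parental cells, 200 in YFP-negative cells, 454 in YFP-low cells, 690 in YFP-medium cells and 700 in YFP-high. SLC16A1 made up 82.1%, 87.1%, 90.5%, 87.3% and 75.7% of the sum in the same order. SLC16A6 made up 15.1% in YFP-high, against 0.0982% in parental cells. The sums of YFP-high and YFP-medium were nearly level, while SLC16A1 was lower and SLC16A6 higher in YFP-high.

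**Figure D3:**
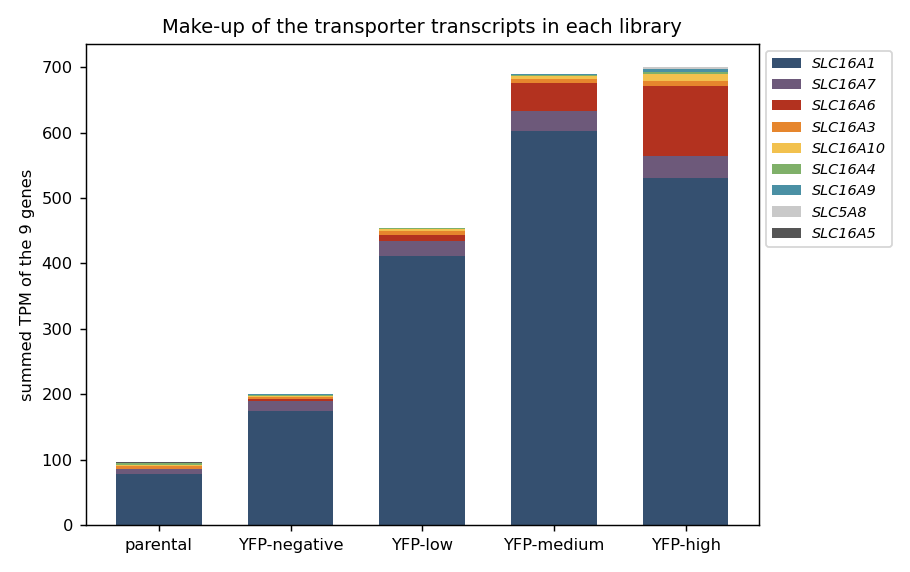
Summed deposited TPM of the 9 transporter genes (vertical axis, from 0) in each library, stacked by gene. SLC16A1 made up most of every bar, and the SLC16A6 part was 106 TPM in YFP-high and 43.0 TPM in YFP-medium.

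Other SLC16 genes did not follow the same direction. Because the members were chosen with earlier results of these data known, the contrast with them is a description only. Of SLC16A8, SLC16A11, SLC16A12, SLC16A13 and SLC16A14, 4 were analysed, and in YFP-high against YFP-negative 1 was called higher and 3 lower, beside 20.3% higher and 11.3% lower of all analysed genes. SLC16A13, a less studied family member, had 11.5 CPM in the parental cells, 9.31 CPM in YFP-negative cells, 5.43 CPM in YFP-low cells, 3.95 CPM in YFP-medium cells and 1.58 CPM in YFP-high, a log2 ratio of -2.24 between YFP-high and YFP-negative. SLC16A8, the MCT3 carrier of the retinal pigment epithelium, had 1.30 CPM in YFP-high against 4.76 CPM in YFP-negative. SLC16A12, a creatine transporter, had 1.58 CPM in YFP-high against 4.14 CPM in YFP-negative, but its parental level was 1.30 CPM, and with 2 CPM added its log2 ratio of -0.78 missed the rule. SLC16A14, an orphan carrier, was the exception, at 4.42 CPM in YFP-high against 1.26 CPM in YFP-negative (log2 ratio 1.49, and 0.98 with 2 CPM added). SLC16A11 stayed under 1 CPM in every library, and SLC5A12, the other sodium-coupled monocarboxylate transporter, had 1 to 7 reads.

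**Figure D4:**
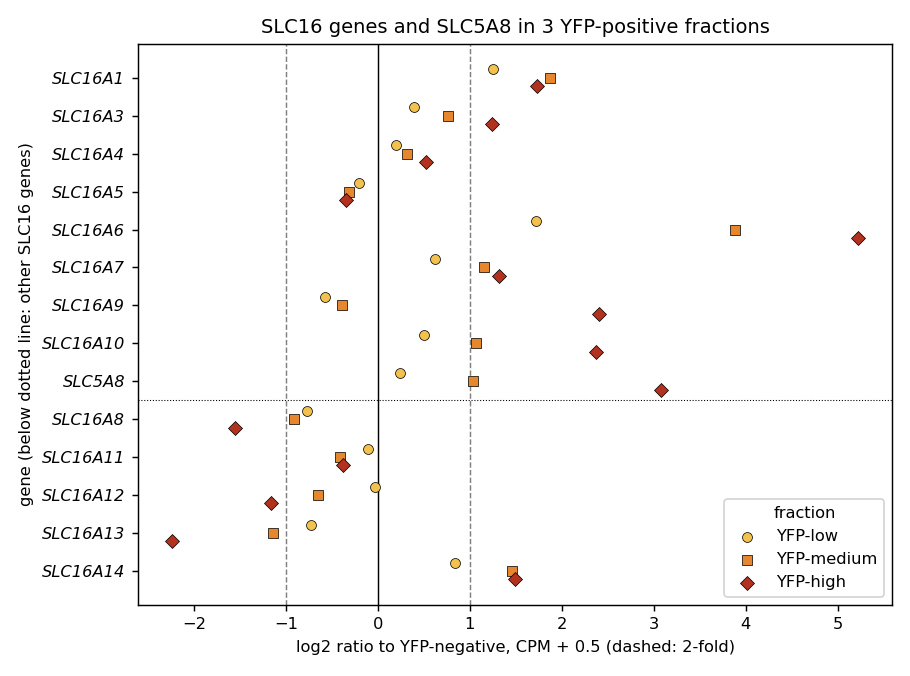
Log2 ratio to YFP-negative, with 0.5 CPM added (horizontal axis), of the 9 transporter genes above the dotted line and of 5 other SLC16 genes below it, in YFP-low (circles), YFP-medium (squares) and YFP-high (diamonds). Dashed lines mark 2-fold. SLC16A6 lay farthest to the right at 5.22 in YFP-high and SLC16A13 farthest to the left at -2.24; SLC16A5 and SLC16A11 are drawn although they were below 1 CPM in every library.

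The ancillary glycoproteins that bring SLC16 carriers to the cell surface were not called in YFP-high against YFP-negative. BSG (basigin), the partner of MCT1 and MCT4, had 439 CPM in YFP-high against 345 CPM in YFP-negative. EMB (embigin), the partner of MCT2, had 121 CPM in YFP-high against 105 CPM in YFP-negative, and NPTN (neuroplastin) had 102 CPM in YFP-high against 122 CPM in YFP-negative. The median log2 ratio of these 3 genes was 0.20, and -0.07 when scaled to total gene counts.

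Of 19 genes that handle lactate and pyruvate inside the cell, 17 were analysed, and in YFP-high against YFP-negative 3 were called higher and 2 lower, with a median log2 ratio of -0.17. That is 17.6% higher and 11.8% lower, near the 20.3% and 11.3% of all analysed genes. The 3 higher genes were pyruvate dehydrogenase kinases, which switch off the entry of pyruvate into the citric acid cycle. PDK3 had 19.5 CPM in the parental cells, 15.2 CPM in YFP-negative cells, 20.3 CPM in YFP-low cells, 31.3 CPM in YFP-medium cells and 62.6 CPM in YFP-high. PDK4 had 5.29 CPM in YFP-high against 1.33 CPM in YFP-negative, and PDK1 had 35.8 CPM in YFP-high against 13.8 CPM in YFP-negative. A filter of 5 CPM removed PDK4. The fourth kinase, PDK2, was not called, with 33.6 CPM in YFP-high against 26.5 CPM in YFP-negative. PDP2, a phosphatase that opposes these kinases, was lower, at 11.1 CPM in YFP-high against 30.3 CPM in YFP-negative. PDP1, another such phosphatase, was not called, with 39.8 CPM in YFP-high against 44.6 CPM in YFP-negative. PDHB, a subunit of pyruvate dehydrogenase named after its value was seen, was the other lower gene, at 35.2 CPM in YFP-high against 74.4 CPM in YFP-negative. The lactate dehydrogenase genes LDHA and LDHB were not called, with log2 ratios of -0.21 and -0.40, nor were MPC1 and MPC2, the mitochondrial pyruvate carrier, with 0.45 and 0.33. PDK2, PDP1, LDHA, LDHB, MPC1 and MPC2 were also picked after their values were seen.

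Of 8 ketone body genes, 6 were analysed and none was called in YFP-high against YFP-negative, beside the same 20.3% higher and 11.3% lower of all analysed genes. BDH1, which interconverts the ketone bodies, came closest at a log2 ratio of 0.95, followed by OXCT1, which commits them to oxidation, at 0.71. BDH2 was at -0.49 and AACS, which activates acetoacetate for lipid synthesis, at 0.47. The median was 0.13, and -0.14 when scaled to total gene counts. In YFP-high against YFP-medium, 1 of the 6 was called, beside 9.5% of all analysed genes higher and 1.15% lower. That gene was BDH1, at 18.6 CPM against 8.60 CPM. Its call was lost with total gene counts (log2 ratio 0.99) and with 2 CPM added (0.96).

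Of 12 genes for thyroid hormone and aromatic amino acids, 10 were analysed, and 3 were called higher and 0 lower in YFP-high against YFP-negative, beside 20.3% and 11.3% of all analysed genes. The list's median log2 ratio was 0.27, and -0.01 under a filter of 5 CPM. THRA, a thyroid hormone receptor, had 53.1 CPM in YFP-high against 24.7 CPM in YFP-negative, while its parental level was 45.1 CPM. Its call was lost with total gene counts (log2 ratio 0.82) and in deposited TPM (0.96). SLCO4A1, SLC3A2 and SLC7A5, which encode transporters or a transporter subunit, were not called, with log2 ratios of 0.81, -0.19 and -0.05. The other called genes, named after their values were seen, were CRYM, a thyroid hormone binding protein, at 3.43 CPM in YFP-high against 0.410 CPM in YFP-negative, and DIO1, a deiodinase, at 2.23 CPM in YFP-high against 0.410 CPM in YFP-negative. DIO1 lost its call with 2 CPM added (0.81), and a filter of 5 CPM removed both. Of 12 carnitine and creatine genes, 9 were analysed and 1 was called higher, beside 20.3% of all analysed genes, with a median log2 ratio of 0.35. That gene, CKB, the cytosolic creatine kinase, had 138 CPM in YFP-high against 60.7 CPM in YFP-negative, a call lost with total gene counts (log2 ratio 0.90). SLC22A4 and SLC22A5, carriers of the carnitine family, and SLC6A8, the creatine transporter, had log2 ratios of 0.77, 0.75 and 0.38. In YFP-high against YFP-medium, SLC22A5, the main cellular carnitine importer, had 24.8 CPM against 9.70 CPM, THRA 53.1 CPM against 24.4 CPM and SLCO4A1 16.5 CPM against 7.81 CPM, and all 3 were called higher. In that comparison 4 of the 10 thyroid hormone and aromatic amino acid genes and 1 of the 9 carnitine and creatine genes were called higher, beside 9.5% of all analysed genes. With 2 CPM added, 1 of the 10 was called, and with total gene counts or deposited TPM 2 were. Over all genes, 978 of 15099, 1267 of 15099 and 1284 of 14985 were called higher in that order. SLCO4A1 lost that call with total gene counts (log2 ratio 0.96), with 2 CPM added (0.92) and in deposited TPM (0.99).

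**Figure D5:**
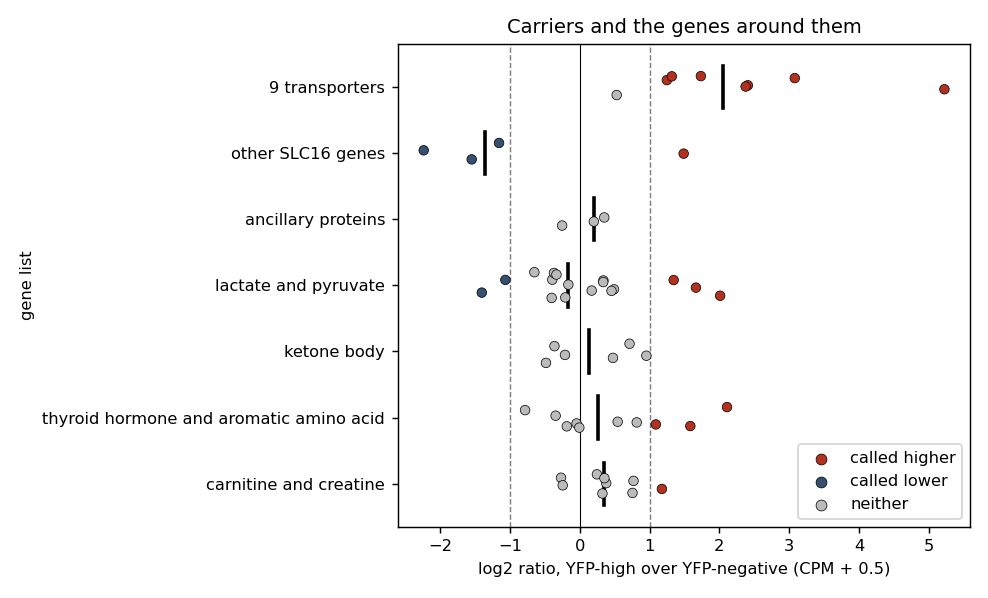
Log2 ratio of YFP-high over YFP-negative, with 0.5 CPM added (horizontal axis), for each analysed gene of 7 lists (rows). Points are genes, coloured by call, vertical bars are list medians and dashed lines mark 2-fold. The 8 analysed transporters had a median of 2.05, and the 4 other analysed SLC16 genes one of -1.35. The 8 were chosen with earlier results of these data known and include SLC5A8, which was analysed only through its level in YFP-high.

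For the 3 members with the widest range over the 5 libraries, the genes of nearest pattern were found as those with the smallest root mean square difference in log2(CPM + 0.5), each gene centred on its own mean. For SLC16A6 they were HEY1 at 0.14, FA2H, a fatty acid hydroxylase, at 0.29 and FOXJ1, a regulator of motile cilia, at 0.35. HEY1, a NOTCH-responsive repressor, had 1.87 CPM in the parental cells, 14.5 CPM in YFP-negative cells, 51.6 CPM in YFP-low cells, 192 CPM in YFP-medium cells and 514 CPM in YFP-high. For SLC5A8 they were UBE2QL1, FEZF2 and TFEB, a regulator of lysosome genes, at 0.05, 0.06 and 0.07. UBE2QL1 and TFEB were not near 0 in YFP-negative, with 2.15 and 7.18 CPM there and 20.3 and 56.0 CPM in YFP-high. The added 0.5 CPM narrows the range of a gene near 0, such as SLC5A8, so their likeness to it depends on that setting. FEZF2, a forebrain transcription factor, had 0 reads in both parental and YFP-negative cells, 5 in YFP-low cells, 29 in YFP-medium cells and, as CPM, a level of 3.55 in YFP-high cells. For SLC16A1 they were TMEM201 and FAM81A, both at 0.05, and RRM2 at 0.09. RRM2, the ribonucleotide reductase subunit that supplies DNA synthesis, had 505 CPM in the parental cells, 973 CPM in YFP-negative cells, 2460 CPM in YFP-low cells, 3775 CPM in YFP-medium cells and 3816 CPM in YFP-high. With 5 libraries and 15099 candidate genes, such likeness is a description only.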

How the data were processed

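The authors deposited whole-number read counts per gene name, not normalized, and a second table of TPM. Per the submitters' processing notes, the tools were CASAVA 1.8.2, bcl2fastq, Trimmomatic 0.36, HISAT2 2.0.3 and HTSeq 0.6.0 on build hg19. The sources used here give no annotation, strand setting or TPM tool. Rows naming no gene (22.3% to 24.3% of counted reads) were left out. Counts were scaled by TMM (edgeR 4.0.16, R 4.3.3) over the 15099 genes that reached 1 CPM in any library, with factors of 0.895 to 1.08. Log2 ratios used a pseudocount of 0.5 CPM and understate changes of low genes. Ratios in the text have none and carry exact 95% Clopper-Pearson intervals, and levels carry exact Poisson intervals. Intervals and the floor of 3 reads cover counting error only, since PCR copies are not independent molecules. Neighbouring genes were taken from GENCODE and sequences from RefSeq. Named genes are the 9 members, 5 other SLC16 genes, SLC5A12, up to 4 members per list with the largest log2 ratio in YFP-high against YFP-negative and at least 5 CPM in 1 of both, 3 genes of nearest pattern for 3 members, and genes within 5 kb of a member that were counted or overlap its exons. A gene that the rule also names is not reported here. The members and lists were chosen with earlier results of these data known. Alternatives were DESeq2 1.42.0 size factors, total gene counts, a pseudocount of 2 CPM, no filter, a filter of 5 CPM, deposited TPM and a 1.5-fold rule. Calls in deposited TPM used the 2-fold size alone, with 0.5 TPM added and no counting interval. Ratios were computed with scipy 1.17.1, pandas 2.3.3 and numpy 2.4.6 in Python 3.11.15, and drawn with matplotlib 3.10.9.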

Additional observations from a re-analysis of the deposited data

How the results depend on the processing

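No carrier changed direction while called under any of the 7 alternatives, and the number of members called stayed within 1.5 times in all but 2 comparisons. In YFP-medium against YFP-negative, where 5 members were called, 2 were called with total gene counts, 3 with a pseudocount of 2 CPM and 3 with deposited TPM. Over all 15099 analysed genes, 1428 were called higher in the main setting, 1084 with total gene counts and 1128 with 2 CPM added. In deposited TPM it was 1220 of 14985. SLC16A7, SLC16A10 and SLC5A8 lost the call with total gene counts (log2 ratios 0.96, 0.90 and 0.996), and SLC16A10 and SLC5A8 with 2 CPM added (0.75 and 0.34) and in TPM (0.97 and 0.86). In YFP-medium against YFP-low, where 1 was called, the 1.5-fold rule called 3. Over all 15099 analysed genes, that rule called 1437 higher, against 403 in the main setting. In YFP-high against parental cells SLC16A3 also lost its call with 2 CPM added (0.99) and in TPM (0.97). With total gene counts, the all-gene median log2 ratio shifted by -0.27 for YFP-high against YFP-negative, -0.19 for YFP-medium against YFP-negative, -0.24 for YFP-high against parental cells and -0.12 for YFP-medium against YFP-low. In deposited TPM the shift was -0.13 for YFP-high against YFP-negative and against parental cells. Of the genes called in YFP-high against YFP-negative, 64.3% were higher, against 45.7% with total gene counts. In YFP-medium against YFP-negative 79.9% were higher, against 58.0%, and in YFP-high against parental cells 59.4%, against 45.3%. The cause of these changes was not tested. No paired analysis was possible because each group has 1 library and no test was made. Leaving out a library was not possible for the same reason. Depth limits SLC16A5, and SLC5A8 outside YFP-medium and YFP-high, to a handful of reads.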
